A study of Mus musculus with 24 samples.

Results

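The 1 Mb bins of mouse chromosomes 2, 13, 14 and 19 with a mean count of 100 or more were followed through γH2AX and H2AX ChIP-seq of SIRT7 mutant, rescued and wild-type cells. These 479 bins, of 2582 tested on chromosomes 1 to 19 and X, were 180 bins of chromosome 2, 118 of chromosome 13, 122 of chromosome 14 and 59 of chromosome 19. The 4 chromosomes were chosen by their read content, which differed little between KO and WT cells, so the difference between KO and WT is only described, with no test. Of 491 bins of these chromosomes in the table, 12 had a lower count. The member nearest to the count limit, the short last bin of chromosome 2 (chr2:182000001-182113224), had a mean count of 3054, and the bin nearest to it among those left out (chr13:2000001-3000000) had 0.833. The same 479 bins passed in the clones.

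All cells were female C57BL6/CAST hybrid cells labelled TTF, an abbreviation that the labels do not expand, and all samples are labelled as given 5 Gy of X-rays with 30 min of recovery. The KO and WT cells gave 2 libraries each of γH2AX ChIP, H2AX ChIP and input. The clones were 2 lines labelled SIRT7-HY (c5 and c7, with HY not explained), 2 SIRT7-KO lines (c9 and c22) with SIRT7-WT added, and the same 2 SIRT7-KO lines without it, each with 1 γH2AX and 1 H2AX library. Clone columns carry replicate numbers and no clone names, so a value is not tied to a clone here. In the table of KO and WT cells the 2 columns of each group are named NT and Xray, although the labels give irradiation to every sample, and these names are used below only to tell the libraries apart. If the names stand for unirradiated and irradiated cells, the 2 libraries of a group are 2 conditions and not replicates, and the spread and p-values in these cells hold that difference. Labels and names could not be reconciled here. The γH2AX libraries of the same name deviated together in KO and WT cells (r = 0.954 over the 479 bins, a description). The rescue table has its own 2 WT libraries per antibody, and its second one is identical in all 479 bins to the NT-named library of the other table, so the same doubt touches each comparison with those WT libraries.

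H2AX is a variant of histone H2A that sits in nucleosomes along the whole genome, and γH2AX is the form phosphorylated by the checkpoint kinases ATM, ATR and DNA-PK around DNA double-strand breaks, where it spreads over long stretches of chromatin and recruits repair factors. SIRT7 is a nuclear deacetylase enriched in the nucleolus that acts on histone H3 and takes part in DNA repair. Because γH2AX can form only where H2AX is present, γH2AX is given below relative to H2AX, as the difference of log2 CPM (reads scaled to the library size) in a bin. No spike-in was used, so each value is a share of a library and not an amount. A signal in fewer cells and a weaker signal in each cell cannot be told apart.

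Several bins described below hold gene families of near-identical copies, between which mapped reads may not be separable. The promoters of the copies are shown so that their likeness can be seen; how many reads of a bin fall in such copies was not measured. Each is 250 bases before and 50 after each start, from RefSeq (GRCm38.p6, which shares the coordinates of the mm10 build named for the files), written 5′ to 3′ on the gene's strand, with capitals at the bases that have no identical partner in the alignment of the pair. In the last bin of chromosome 13, Gm36161 (plus strand, chr13:120010092-120010391) and Gm21188 (minus strand, chr13:120052155-120052454) matched at 294 of 295 aligned positions, which is 99.7%. AF067061 (plus strand, chr13:120262845-120263144) and Gm21761 of the bin before it (minus strand, chr13:119913419-119913718) matched at 271 of 300 positions (90.3%). In the prolactin cluster, which encodes hormones of the pituitary and placenta, Prl3d2 (plus strand, chr13:27121445-27121744) matched Prl3d1 (plus strand, chr13:27093939-27094238) at 277 of 283 positions (97.9%) and Prl3d3 (plus strand, chr13:27156544-27156843) matched it at 274 of 279 (98.2%). Capitals of Prl3d1 mark its alignment with Prl3d2 only, and those of Prl3d2 and Prl3d3 mark their alignments with Prl3d1.
Gm36161: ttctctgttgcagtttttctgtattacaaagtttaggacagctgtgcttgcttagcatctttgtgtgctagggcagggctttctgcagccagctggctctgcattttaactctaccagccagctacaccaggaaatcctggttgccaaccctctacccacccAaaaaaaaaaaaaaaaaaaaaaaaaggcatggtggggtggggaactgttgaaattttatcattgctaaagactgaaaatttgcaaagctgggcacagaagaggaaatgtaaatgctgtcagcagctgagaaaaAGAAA
Gm21188: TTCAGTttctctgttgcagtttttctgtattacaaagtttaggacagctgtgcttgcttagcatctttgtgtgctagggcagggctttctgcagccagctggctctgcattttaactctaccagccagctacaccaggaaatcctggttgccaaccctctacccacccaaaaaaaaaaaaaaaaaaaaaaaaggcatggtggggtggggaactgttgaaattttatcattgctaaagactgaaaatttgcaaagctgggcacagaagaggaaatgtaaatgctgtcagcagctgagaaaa
AF067061: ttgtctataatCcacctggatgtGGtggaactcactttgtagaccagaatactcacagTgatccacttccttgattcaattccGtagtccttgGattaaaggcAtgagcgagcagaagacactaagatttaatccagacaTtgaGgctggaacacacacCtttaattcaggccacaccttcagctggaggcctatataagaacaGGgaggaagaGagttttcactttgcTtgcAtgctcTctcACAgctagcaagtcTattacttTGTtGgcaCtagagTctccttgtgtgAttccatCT
Gm21761: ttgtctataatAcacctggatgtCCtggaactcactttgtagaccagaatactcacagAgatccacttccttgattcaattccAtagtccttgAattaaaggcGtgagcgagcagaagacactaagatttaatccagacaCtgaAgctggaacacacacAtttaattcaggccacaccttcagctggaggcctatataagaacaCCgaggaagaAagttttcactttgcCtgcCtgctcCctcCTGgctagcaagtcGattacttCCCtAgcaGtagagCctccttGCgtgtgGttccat
Prl3d1: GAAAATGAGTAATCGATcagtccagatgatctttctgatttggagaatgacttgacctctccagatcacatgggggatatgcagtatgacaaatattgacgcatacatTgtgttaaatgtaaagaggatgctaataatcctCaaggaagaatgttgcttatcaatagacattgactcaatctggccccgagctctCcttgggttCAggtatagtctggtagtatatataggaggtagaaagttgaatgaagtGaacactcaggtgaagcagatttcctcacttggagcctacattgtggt
Prl3d2: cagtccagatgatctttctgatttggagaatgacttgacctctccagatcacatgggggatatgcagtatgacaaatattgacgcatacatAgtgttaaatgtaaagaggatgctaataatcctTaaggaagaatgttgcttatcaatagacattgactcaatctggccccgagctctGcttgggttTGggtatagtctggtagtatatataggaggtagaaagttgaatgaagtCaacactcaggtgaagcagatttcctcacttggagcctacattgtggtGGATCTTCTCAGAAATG
Prl3d3: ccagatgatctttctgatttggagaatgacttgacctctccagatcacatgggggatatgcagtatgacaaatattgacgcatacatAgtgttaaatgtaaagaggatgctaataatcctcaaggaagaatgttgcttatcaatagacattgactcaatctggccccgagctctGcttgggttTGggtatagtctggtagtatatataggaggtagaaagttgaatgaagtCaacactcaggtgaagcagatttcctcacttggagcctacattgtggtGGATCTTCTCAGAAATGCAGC

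The libraries held 70349148 to 155364952 reads in the clones, 88317834 to 248337642 in the WT libraries of the rescue table and 170013624 to 268180310 in the table of KO and WT cells. A median member bin held 26612 to 59245, 31145 to 89097 and 61028 to 100300 reads in these sets, so counting error was small beside the spread between libraries. That spread, as the biological coefficient of variation, was 11.4% among the clones and 3.23% among KO and WT libraries. The bin that holds Sirt7 itself (chr11:120000001-121000000) had 258 and 282 CPM of γH2AX in KO cells, against 522 and 572 CPM in WT cells, and input differed alike (218 and 217.8 against 414.9 and 406 CPM). The KO clones with SIRT7-WT had 1936 and 9561 CPM of γH2AX there, against 530 and 396 CPM in the KO clones. H2AX of this bin differed less, with 1096 and 1496 CPM with SIRT7-WT against 741.5 and 926.2 CPM in the KO clones. The HY clones had 1145 and 1320 CPM of H2AX there.

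The clones lay apart from KO and WT cells most plainly in 2 bins (chosen after their values were seen). The bin chr2:98000001-99000000, which holds no protein-coding gene midpoint and covers a place known in mouse sequencing data for piled-up repeat reads, had 11010 to 18397 CPM in the 12 clone libraries. It had 50540 to 64934 CPM in the 12 KO and WT libraries and 57108 to 63339 CPM in the WT libraries of the rescue table. In share of autosomal reads, this single bin took 1.19 to 2.05% in clones, against 5.36 to 6.79% in KO and WT libraries. The bin chr14:19000001-20000000 showed the same order, with 0.282 to 0.551% of autosomal reads in clones, and 1.19 to 1.54% in KO and WT libraries. The clone libraries lay below every KO and WT library in both bins, in γH2AX and H2AX alike. The chromosome 2 bin held 32.9 to 47.7 times the reads of the median member bin in clones, and 141 to 186 times in KO and WT libraries. The next highest member bin, at 177000001 on chromosome 2, reached only 559.3 to 687.1 CPM in the KO and WT libraries. Whether library preparation, mapping or the cells set these levels was not tested.

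**Figure D1:**
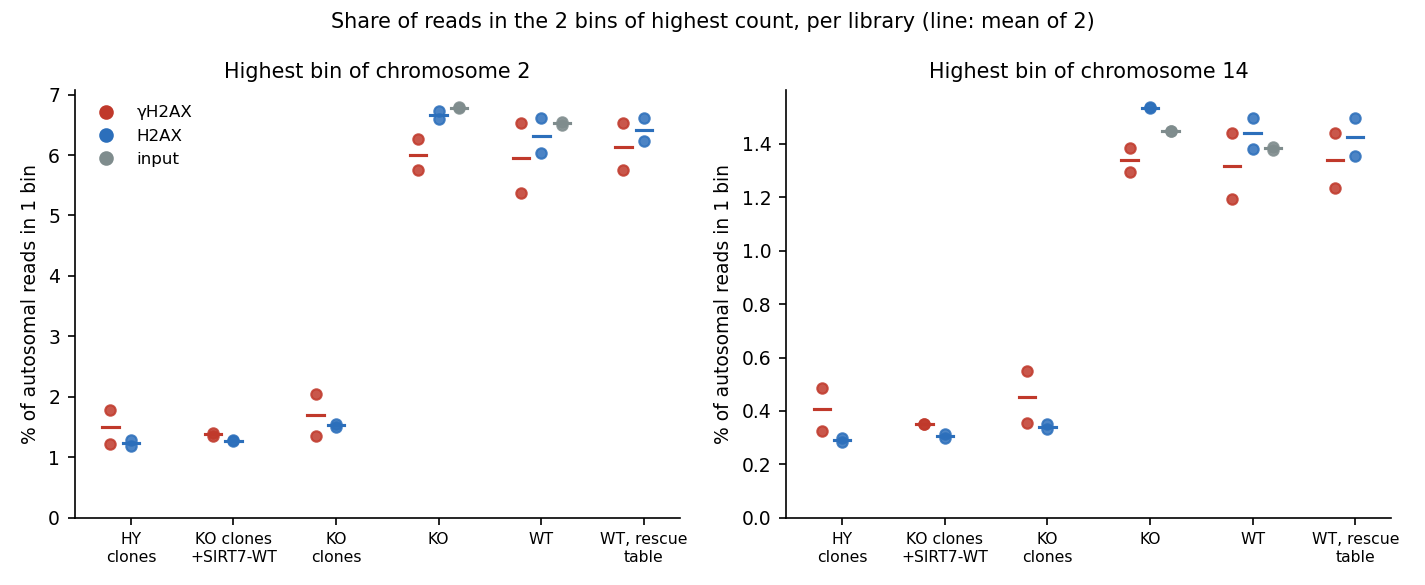
Percent of autosomal reads in the 2 bins of highest count, on chromosome 2 (left) and chromosome 14 (right). Points are libraries (γH2AX, H2AX and input), short lines are means of 2, and the x axis gives the groups, with 1 WT library present in both WT groups. Clone libraries sit at 1.19 to 2.05% on chromosome 2 and 0.282 to 0.551% on chromosome 14, below all KO and WT libraries.

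With these 2 bins left out, the 4 chromosomes kept narrow shares of the autosomal reads in KO and WT cells. Chromosome 2 took 7.56 to 8.08% over the 12 libraries, chromosome 13 took 4.77 to 5.12%, chromosome 14 took 3.76 to 4.00% and chromosome 19 took 2.83 to 2.91%. The KO and WT means of γH2AX were 7.66 and 7.95% on chromosome 2, 4.82 and 4.97% on chromosome 13, and 3.77 and 3.93% on chromosome 14. On chromosome 19 they were 2.90 and 2.90%. On the log2 scale KO minus WT came to -0.053, -0.045, -0.059 and 0.0002 for γH2AX on chromosomes 2, 13, 14 and 19. For H2AX it was -0.042, -0.042, -0.052 and 0.0015, and for input -0.033, -0.049, -0.062 and 0.0033. Chromosome 19 was nearest to 0 and chromosome 14 lowest in γH2AX, H2AX and input.

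The clones spread wider on the same chromosomes. In H2AX, chromosome 13 took 4.11 and 3.93% of autosomal reads in the HY clones, 4.65 and 5.13% in the KO clones with SIRT7-WT and 4.72 and 5.15% in the KO clones. Chromosome 14 ran the other way, with 4.04 and 4.34% in the HY clones, 3.51 and 3.62% in the KO clones with SIRT7-WT and 3.56 and 3.61% in the KO clones. γH2AX gave the same order on chromosome 13 (4.35 and 4.61% in HY clones, 4.86 and 5.35% with SIRT7-WT, 4.91 and 5.52% in KO clones) and on chromosome 14 (4.23 and 4.72%, 3.74 and 3.81%, and 3.80 and 3.94% in the same groups). In both assays the HY clones overlapped neither other clone type on these 2 chromosomes. The differences did not pass the reported test, which kept the 2 bins of highest count: for H2AX of HY clones against KO clones the log2 difference was -0.29 ± 0.10 on chromosome 13 (SE, edgeR quasi-likelihood test, adjusted p = 0.136 over 20 chromosomes) and 0.20 ± 0.10 on chromosome 14 (adjusted p = 0.261). Without these bins the lowest adjusted p among the 4 chromosomes was 0.0932. With the replicate number as a block as well, 2 of the 4 passed (lowest adjusted p = 0.0050), although the number pairs no culture between HY and KO clones. The HY and KO clones are different lines with 2 clones each, so clone and genotype cannot be told apart. Chromosome 19 differed more between the 2 libraries of a clone type (2.49 and 3.35% of H2AX reads in HY clones) than between types.

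γH2AX relative to H2AX, summed over a chromosome, passed the test in KO cells on chromosome 13 (0.028 ± 0.009, SE, edgeR adjusted p = 0.040) and on chromosome 14 (-0.067 ± 0.015, adjusted p = 0.0133). In WT cells the values were 0.024 ± 0.009 (adjusted p = 0.103) and -0.044 ± 0.015 (adjusted p = 0.0929). Without the 2 bins of highest count, chromosome 13 was at 0.014 in KO cells (adjusted p = 0.0218) and 0.016 in WT cells (adjusted p = 0.0408), and chromosome 14 at -0.027 (adjusted p = 0.0142) and -0.020 (adjusted p = 0.0484). The difference between KO and WT was not tested, because it chose the chromosomes. With the TMM factors of the bins as scale, chromosome 14 of KO cells did not pass (-0.059, adjusted p = 0.0899), chromosome 13 did (0.035, adjusted p = 4.3e-04), and so did chromosome 19 of KO cells (0.028, adjusted p = 0.0023) and chromosomes 13 and 19 of WT cells (0.028, adjusted p = 0.0021, and 0.019, adjusted p = 0.0204). With the column name as a block, all 4 chromosomes passed in KO cells (chromosome 2 at -0.080, adjusted p = 0.0318, and chromosome 19 at 0.020, adjusted p = 0.0105), and chromosomes 13, 14 and 19 in WT cells (adjusted p = 0.0147, 0.0207 and 0.0207). In the clones, chromosome values of γH2AX relative to H2AX lay between -0.12 and 0.15 on the 4 chromosomes, and the lowest adjusted p was 0.79. With the library pair as a block, chromosomes 13 and 14 passed in HY clones (0.15, adjusted p = 0.0115, and 0.12, adjusted p = 0.0214), and chromosomes 14 and 19 in KO clones (0.14, adjusted p = 0.0158, and -0.12, adjusted p = 0.0259). In KO clones with SIRT7-WT the lowest adjusted p was then 0.0623.

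**Figure D2:**
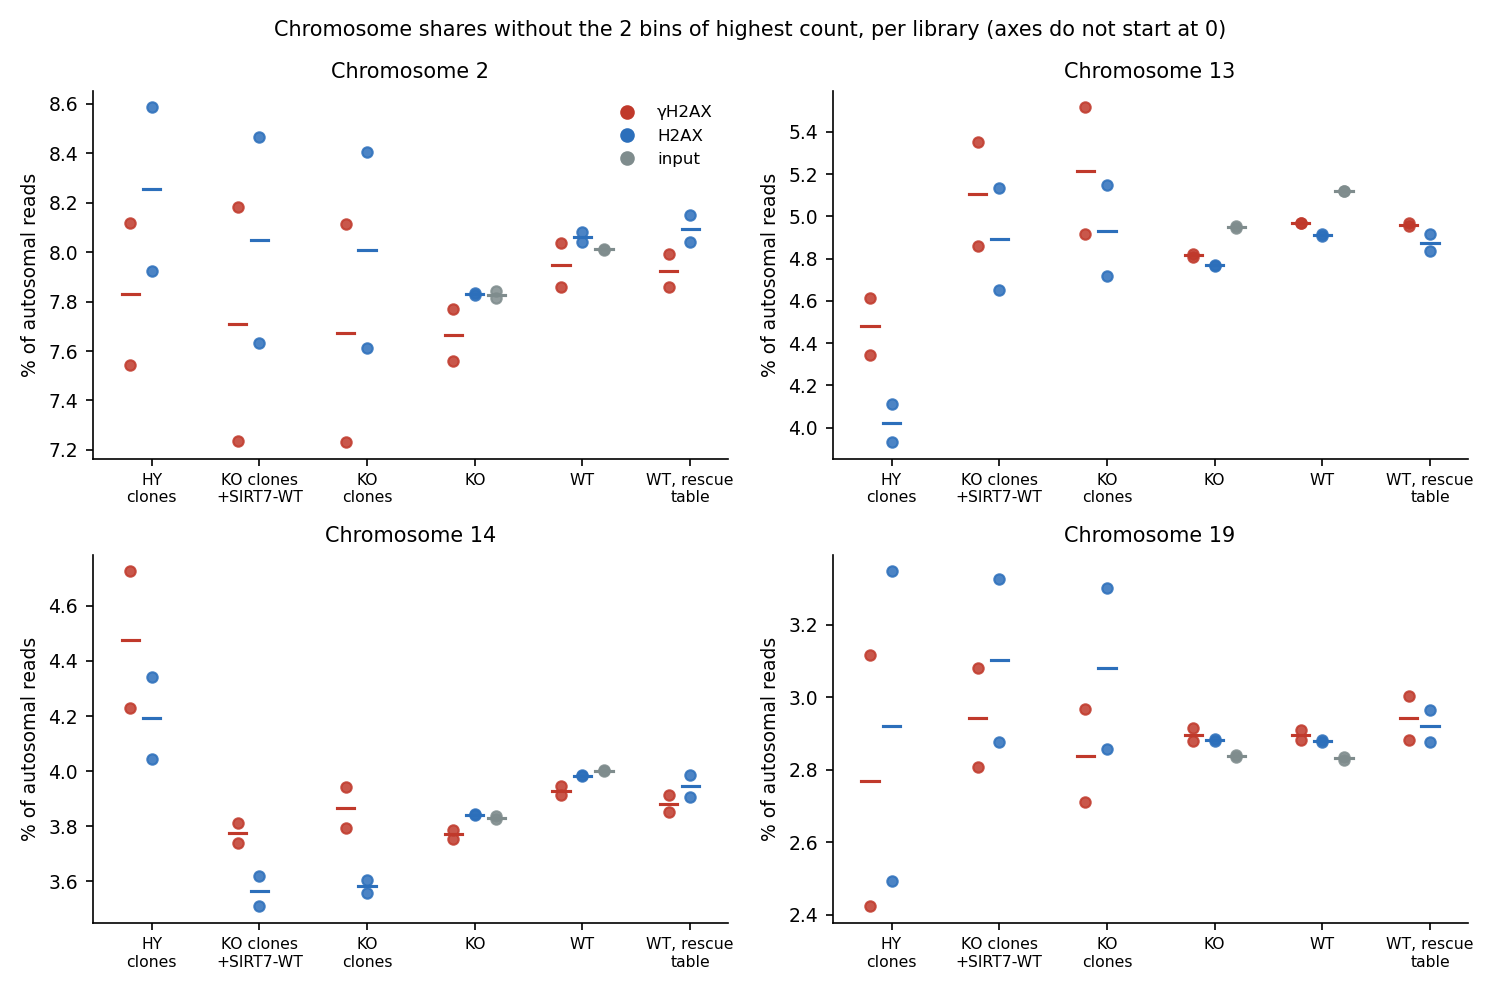
Percent of autosomal reads on chromosomes 2, 13, 14 and 19 per library, with the 2 bins of highest count left out; points are libraries, lines are means of 2, and the y axes do not start at 0. HY clones sit at 3.93 to 4.61% on chromosome 13 and 4.04 to 4.72% on chromosome 14, apart from the other clones, while KO and WT libraries stay close together.

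Within chromosome 2, a stretch from 65000001 to 134000000 held fewer reads than the rest in every library (bounds chosen after the values were seen). Its 68 bins had a median of 298.3 and 295 CPM in KO input, against 440.6 and 444.1 CPM in the 111 other bins without the highest one, a ratio of 0.677 and 0.664. In WT input the ratio was 0.627 and 0.628. Over all KO and WT libraries the ratio ran between 0.604 and 0.677, and over the clones between 0.526 and 0.627. In WT cells, the parental columns of the rescue table placed this stretch mostly in 1 class: the median bin had 90.9 to 91.6% of its assigned reads in the class called genome1, against 58.3 to 58.9% outside. The strain behind genome1 is not given in the sources used here. Of reads on chromosome 2, 26.9 to 32.9% were assigned to a parent, against 59.0 to 66.5% on chromosome 13. The bin of highest count lowers the chromosome 2 share, which was not computed without it. In the second WT γH2AX library that bin took 6.53% of autosomal reads, of 13.76% on all of chromosome 2. It gave 39669 assigned reads, while the chromosome gave 6045896 to genome1 and 3605776 to genome2.

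In all 6 WT libraries (γH2AX, H2AX and input), 36 member bins had over 90% of assigned reads in genome1, and all 36 lay inside this stretch. The highest were the bins of Slc25a12 and Mettl8 (chr2:71000001-72000000) and of Myo3b, Tlk1 and Gad1 (chr2:70000001-71000000), both at a mean of 99.7%. The bin of Ttn, the giant muscle protein titin, and Pde11a (chr2:76000001-77000000) followed at the same level. Not every bin of the stretch went this way: the bin of Ttbk2 and Ubr1 (chr2:120000001-121000000) had a mean of 10.1%. Outside the stretch, the bin of Cfap61 and Ralgapa2 (chr2:146000001-147000000) was lowest at 7.02%, and the bin of Lrp1b (chr2:41000001-42000000) had 13.01%. Summed per chromosome over the 6 WT libraries, genome1 took 62.6 to 63.1% of assigned reads on chromosome 2, 48.9 to 49.2% on chromosome 13, 57.4 to 58.6% on chromosome 14 and 42.4 to 42.6% on chromosome 19. Fewer copies of a parental chromosome in every cell and its absence from some cells cannot be told apart.

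**Figure D3:**
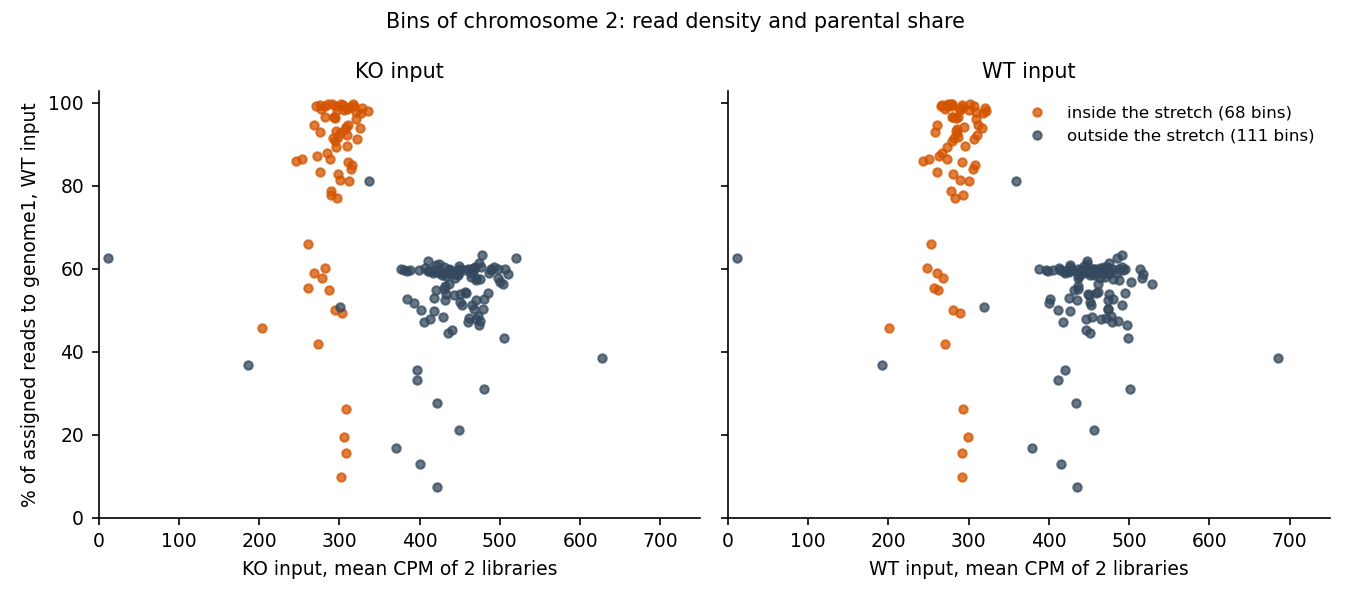
Bins of chromosome 2 by input read density (x axis, mean CPM of 2 libraries, KO left and WT right) and by the percent of parent-assigned reads in genome1 in WT input (y axis, the same values in both panels). The 68 bins of the stretch from 65000001 to 134000000 lie left of most others, and 51 to 52 of them are above 80% in each WT library.

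Across the 479 bins, KO and WT cells differed little, as the choice of chromosomes sets. The median KO minus WT difference was -0.034 for γH2AX, -0.035 for H2AX and -0.013 for input on the log2 scale, with SDs over bins of 0.063, 0.044 and 0.047, against 0.193, 0.194 and 0.192 over all tested bins. γH2AX relative to H2AX differed by a median of -0.0021 with an SD of 0.065, beside 0.059 over all tested bins. The last bin of chromosome 13 (chr13:120000001-120421639), which holds Gm36161, Gm21188 and AF067061 of the promoters above, stood far from the others with a difference of 0.99. It had 264.5 and 204.7 CPM of γH2AX in KO cells, against 140.8 and 126.8 CPM in WT cells, while H2AX was 107.3 and 111.4 CPM in KO cells, against 121.1 and 128.9 CPM in WT cells. The bin before it (chr13:119000001-120000000, with Nnt, a mitochondrial transhydrogenase) differed by 0.36 and the last bin of chromosome 19 by 0.23. The lowest values were -0.16 in the last bin of chromosome 14, which holds the FGF family member Fgf14, -0.14 in the bin of the sodium leak channel gene Nalcn and the integrin-like gene Itgbl1 before it, and -0.14 in a bin of chromosome 2 without coding genes at 7000001.

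Within KO cells, γH2AX relative to H2AX was above the rest of the genome in 25 member bins and below it in 3 (edgeR, adjusted p under 0.05), which is 5.85% of the members beside 3.80% of all tested bins. At an unadjusted p under 0.05 there were 96, for which the share of all tested bins was not computed. The SD over member bins was 0.095, beside a median SE of 0.036. The last bin of chromosome 13 led with 1.10 ± 0.10 (SE, adjusted p = 7.4e-04). It was followed by the short last bin of chromosome 2, with 19.66 and 16.82 CPM of γH2AX against 11.68 and 12.19 CPM of H2AX (0.61, adjusted p = 0.0157). The last bin of chromosome 19 (chr19:61000001-61431566, with Csf2ra, a cytokine receptor subunit, and Zfp950) had 244.8 and 210.0 CPM against 158.3 and 157.5 CPM (0.53, adjusted p = 0.0031). In all 3 bins both γH2AX libraries were above both H2AX libraries. The decreases were small: -0.14 in the bin of Ptdss1, a phosphatidylserine synthase, and Mterf3 (chr13:66000001-67000000), -0.13 in a bin of predicted genes at 176000001 on chromosome 2 (adjusted p = 0.459 with the column name as a block) and -0.12 in the bin of Fam172a and Slf1 (chr13:77000001-78000000), Slf1 being a factor that brings the SMC5/6 complex to damage. In a fit of the compared groups alone no member bin passed in KO cells (edgeR), and the last bin of chromosome 13 had an adjusted p of 0.0827. With autosomal totals as scale the split was 17 higher and 5 lower, and with DESeq2 size factors 19 and 0. With the column name as a block the count was 108 higher and 91 lower, beside 41.0% of all tested bins.

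WT cells gave 45 higher and 16 lower member bins, beside 8.64% and 3.60% of all tested bins. The largest increases were again at chromosome ends. The last bin of chromosome 2 had 20.21 and 17.16 CPM of γH2AX against 12.76 and 12.03 CPM of H2AX (0.59 ± 0.10, adjusted p = 0.0085), and the last bin of chromosome 19 had 201.6 and 191.6 CPM against 162.1 and 159.8 CPM (0.29, adjusted p = 0.0193, and 0.131 with the block). The bin of Nalcn and Itgbl1 (chr14:123000001-124000000) was at 0.26 (adjusted p = 0.0093) and the last bin of chromosome 14 at 0.25 (adjusted p = 0.049). The last bin of chromosome 13 did not pass in WT cells, at 0.098 (adjusted p = 0.51). Its first bin (chr13:3000001-4000000) was at 0.13 in KO and in WT cells and passed in both. The decreases were -0.22 in the bin of Fermt2, a protein of integrin adhesions, and Txndc16 (chr14:45000001-46000000), -0.22 in a bin without coding genes at 171000001 on chromosome 2 and -0.20 in the bin of Tshz2 (chr2:169000001-170000000). The WT split was 42 higher and 9 lower with DESeq2 size factors and 40 and 36 scaled to autosomal reads, and with the block it was 155 and 153, beside 65.3% of all tested bins. Counts in these cells rest on single libraries. Without the NT-named γH2AX library they were 93 in KO and 176 in WT cells, and without the Xray-named one 10 and 31. Without the NT-named H2AX library they were 2 and 36, and without the Xray-named one 2 and 1.

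In the clones, γH2AX and H2AX were distributed differently over the same bins, in all 3 clone types and to a far larger extent than in KO and WT cells. Bins with few genes had more γH2AX than H2AX, and gene-dense bins had less. In the HY clones 126 of 479 member bins were higher and 132 lower (beside 31.6% and 27.9% of all tested bins). In the KO clones with SIRT7-WT, 120 were higher and 118 lower (beside 30.6% and 25.1%), and in the KO clones 130 were higher and 146 lower (beside 32.6% and 29.9%). The SD over member bins was 0.47, 0.43 and 0.49 in these 3 types, beside a median SE of 0.13. The members lay at the background of the genome, so the pattern is not particular to the 4 chromosomes. With the replicate number as a block the counts were 371, 366 and 379, beside 81.8%, 81.3% and 84.0% of all tested bins.

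Of the 479 member bins, 115 were higher in all 3 clone types (beside 29.5% of all tested bins), 115 lower in all 3 (beside 24.5%), and 0 higher in 1 and lower in another. In 162 member bins both γH2AX libraries were above both H2AX libraries within each clone type (beside 37.2% of all tested bins), and in 171 below (beside 33.7%). The balance of directions depends on scaling. With autosomal totals as scale, the median of all tested bins moved to 0.19 in HY clones, 0.15 in KO clones with SIRT7-WT and 0.16 in KO clones, and the splits became 190 higher and 87 lower, 166 and 79, and 181 and 97. The bins of largest increase and decrease named next kept their direction under each scaling.

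Among the increases, the bin of the prolactin cluster (chr13:27000001-28000000, 21 coding genes) had 261.5 and 309.4 CPM of γH2AX in HY clones against 147.0 and 139.9 CPM of H2AX (0.99 ± 0.17, SE, edgeR adjusted p = 7.0e-04). In the KO clones with SIRT7-WT it had 292.3 and 363.9 CPM against 160.3 and 187.1 CPM (0.92), and in KO clones 278.1 and 390.9 CPM against 169.9 and 186.6 CPM. γH2AX was above H2AX in each of the 6 clone pairs. In the WT libraries of the rescue table γH2AX was 244.6 and 327.4 CPM and H2AX 197.5 and 282.9 CPM, so the clones lay apart from WT in H2AX and overlapped it in γH2AX. The bin before it, with the single coding gene Hdgfl1 (chr13:26000001-27000000), was at 0.97 in HY clones and 0.84 in KO clones with SIRT7-WT.

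The bin of Lrrc4c, a synaptic adhesion gene and the only coding gene there (chr2:96000001-97000000), was at 0.92 in KO clones and in KO clones with SIRT7-WT. Its γH2AX was 165.1 and 201.5 CPM in HY clones, 192.5 and 185.5 CPM in KO clones with SIRT7-WT, 192.0 and 204.1 CPM in KO clones and 166.1 and 219.4 CPM in WT cells. Its H2AX was 96.71 and 102.0, 107.6 and 92.77, 113.3 and 96.22, and 171.7 and 224.4 CPM in the same groups. Again γH2AX overlapped between clones and WT cells while H2AX did not. Bins without coding genes at 42000001 on chromosome 2 and at 81000001 on chromosome 14 were at 0.92 and 0.91 in KO clones, and the Fgf14 bin at the end of chromosome 14 was at 0.91 in HY clones.

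The bins of largest decrease lay on chromosome 2. The bin of Col5a1, a fibrillar collagen, Vav2 and the retinoid receptor gene Rxra (chr2:27000001-28000000) had 712.0 and 608.8 CPM of γH2AX in HY clones against 1229 and 1427 CPM of H2AX (-1.01 ± 0.16, SE, adjusted p = 5.7e-04). In KO clones with SIRT7-WT it had 765.6 and 656.3 CPM against 1349 and 1211 CPM (-0.85), and in KO clones 679.4 and 502.0 CPM against 1225 and 1230 CPM (-1.06). In WT cells γH2AX was 746.1 and 574.2 CPM and H2AX 789.3 and 595.9 CPM, so here too γH2AX overlapped and H2AX did not, this time with the clones above WT. H2AX of clones against WT was not tested. The bin of the nucleoporin gene Nup214 with Prrc2b (chr2:32000001-33000000) was at -1.06 in HY clones and -1.04 in KO clones. The bin of the tyrosine kinase gene Abl1 with Hmcn2 and Fnbp1 (chr2:31000001-32000000) was at -1.02, -0.82 and -1.02 in HY clones, KO clones with SIRT7-WT and KO clones, and the bin of Eya2 and Zmynd8 (chr2:165000001-166000000) was at -0.79 in KO clones with SIRT7-WT. Eya2 is a phosphatase of the family that can act on the tyrosine at the end of H2AX.

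At the chromosome ends, the short last bin of chromosome 2 was at 0.74 in HY clones (edgeR adjusted p = 0.0108, and 0.0613 with the block). It was at 0.53 with SIRT7-WT (adjusted p = 0.0549) and 0.29 in KO clones (adjusted p = 0.253). The last bin of chromosome 19 was at 0.34 in HY clones (adjusted p = 0.0763) and 0.23 in KO clones (adjusted p = 0.219). The first bin of chromosome 19 (chr19:3000001-4000000, with the Wnt co-receptor gene Lrp5) was lower in all 3 clone types. It was at -0.62 in HY clones (adjusted p = 0.0049), -0.56 with SIRT7-WT (adjusted p = 0.0094) and -0.75 in KO clones (adjusted p = 0.0013). In the last bin of chromosome 13, γH2AX was 113.5 and 277.6 CPM in HY clones against 111.2 and 99.44 CPM of H2AX (0.89 ± 0.28, adjusted p = 0.0132). It rests on 1 library: without the second HY γH2AX library the value was 0.10 (adjusted p = 0.55), and without the first 1.41 (adjusted p = 7.0e-04). Without the second HY H2AX library it was 0.81 (adjusted p = 0.0846). The other clones had 123.9 to 134.9 CPM of γH2AX and values of 0.0065 with SIRT7-WT and 0.0093 in KO clones, neither past the test.

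Gene content ordered these differences. Over 479 bins, Spearman's rho between γH2AX relative to H2AX and the number of coding genes was between -0.63 and -0.66 in the 6 clone pairs, and -0.004 and 0.031 in the 2 WT pairs of the same table. In the other table it was -0.27 and 0.42 in KO cells and 0.031 and 0.42 in WT cells (NT-named library first), so the 2 libraries of 1 genotype differed. Within single chromosomes, rho of the clone pairs ran from -0.64 to -0.68 on chromosome 2 and from -0.43 to -0.46 on chromosome 13. On chromosome 14 it ran from -0.73 to -0.75 and on chromosome 19 from -0.63 to -0.67. The bins share libraries, and gene number goes with base composition and mappability, whose part was not tested. In the 111 bins with 0 to 1 coding genes the median γH2AX relative to H2AX was 0.45 and 0.68 in HY clones, 0.48 and 0.63 in KO clones with SIRT7-WT, 0.47 and 0.76 in KO clones and -0.031 and -0.038 in WT cells. In the 52 bins with 20 or more it was -0.42 and -0.58, -0.34 and -0.39, -0.45 and -0.63, and -0.029 and -0.013 in the same groups.

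**Figure D4:**
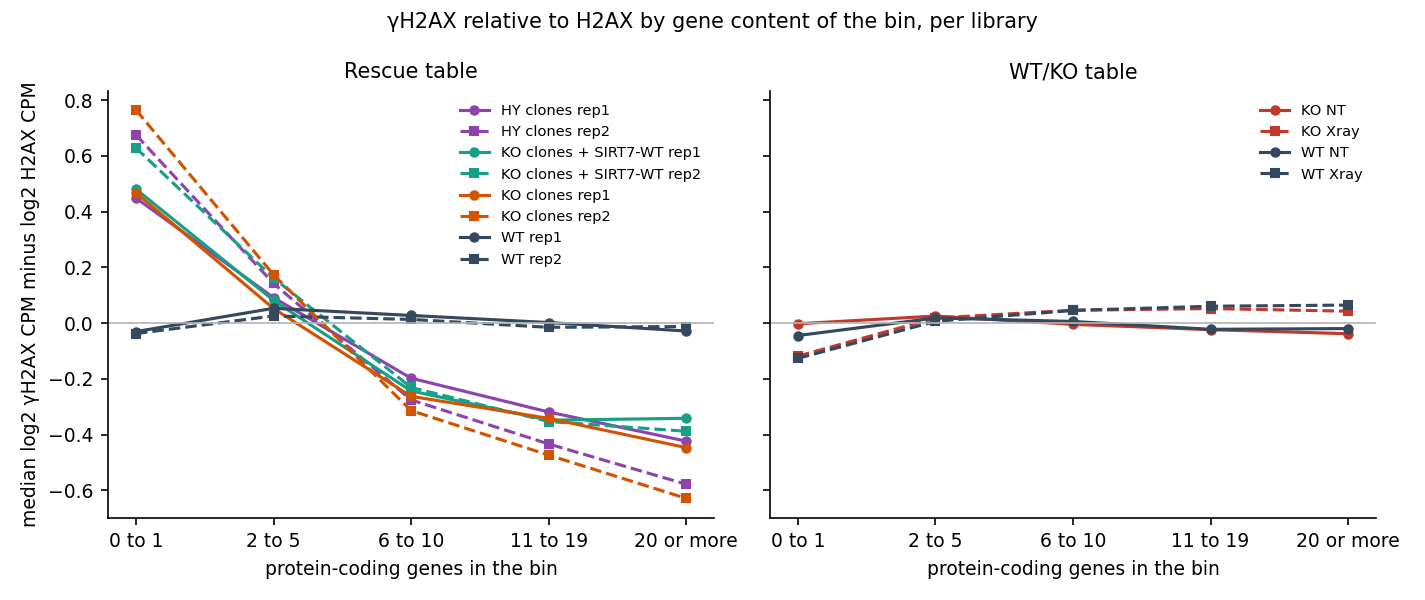
Median γH2AX relative to H2AX (log2 CPM difference, y axis) of member bins grouped by number of coding genes (x axis), 1 line per library pair, rescue table left and the KO and WT table right. All 6 clone lines run downward, between 0.45 and 0.76 in gene-poor bins and between -0.34 and -0.63 in gene-rich bins, and the WT lines of the rescue table stay near 0.

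The wider contrast between gene-rich and gene-poor bins stood in H2AX. Gene-rich bins had 2.14 and 2.401 times the median CPM of gene-poor bins in H2AX of HY clones, 2.56 and 2.16 times with SIRT7-WT and 2.34 and 2.23 times in KO clones. In γH2AX the ratio was 1.35 and 1.34 in HY clones, 1.49 and 1.45 with SIRT7-WT and 1.35 and 1.28 in KO clones. In the WT libraries of the rescue table it was 1.42 and 1.20 for γH2AX and 1.44 and 1.18 for H2AX. In the other table γH2AX gave 1.22 and 1.36 in KO cells and 1.20 and 1.36 in WT cells, H2AX 1.22 and 1.20 against 1.18 and 1.24, and input 1.20 to 1.23. On the rest of the genome the clone ratios were 3.07 to 3.69 for H2AX and 1.18 to 1.73 for γH2AX. Clone H2AX therefore stood apart from clone γH2AX and from every KO and WT library, input included. Clone input columns were not used here, since no labelled sample matches them, and the part of library preparation was not tested.

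**Figure D5:**
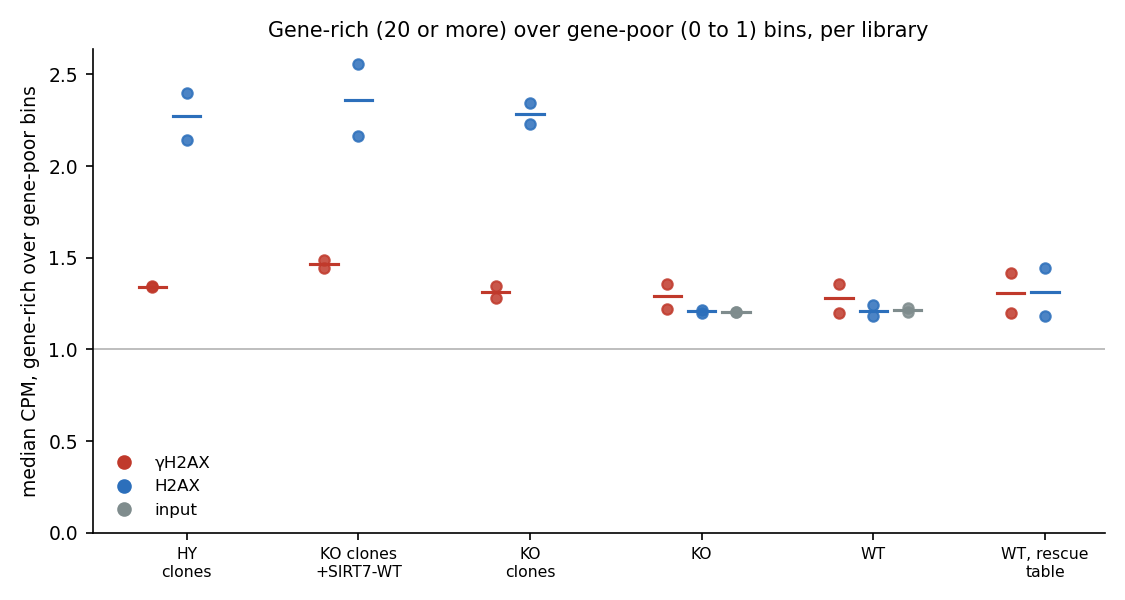
Ratio of the median CPM of gene-rich bins (20 or more coding genes) to that of gene-poor bins (0 to 1), per library, with means of 2 as lines. H2AX of the clones sits at 2.14 to 2.56, and all other libraries at 1.18 to 1.49.

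By the same count of genes, 79 of the 111 gene-poor bins were higher and 2 lower in HY clones, 77 and 2 with SIRT7-WT and 80 and 2 in KO clones. Of the 52 gene-rich bins 6 were higher and 29 lower in HY clones, 6 and 25 with SIRT7-WT and 8 and 30 in KO clones. Over all tested bins, 31.6, 30.6 and 32.6% were higher and 27.9, 25.1 and 29.9% lower in these types. With autosomal totals as scale, gene-poor bins gave 91 and 2, 86 and 2, and 87 and 1, and gene-rich bins 12 and 23, 9 and 20, and 12 and 24. In KO cells 5 gene-poor bins were higher and 0 lower and 3 gene-rich bins were higher, beside 3.80% of all tested bins in either direction. In WT cells 8 gene-poor bins were higher and 3 lower (8 and 10 scaled to autosomal reads), and 4 gene-rich bins were higher and 1 lower. Of all tested bins 8.64% were higher and 3.60% lower in WT cells. In the reported fit, the counts in KO and WT cells lay near these shares.

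The gene lists, which were chosen with earlier results of these data known, can be read beside these counts. Of 25 bins with 28 genes of the DNA damage response, 14 were lower and 1 higher in HY clones (median -0.39), 11 lower and 1 higher with SIRT7-WT (median -0.31), and 16 lower and 1 higher in KO clones (median -0.44), beside medians of all tested bins of 0.013, 0.018 and -0.0029. With autosomal totals as scale the counts were 9, 8 and 10 lower and 1, 1 and 2 higher. Over all tested bins, 27.9, 25.1 and 29.9% were lower and 31.6, 30.6 and 32.6% higher in the reported fit. The 52 gene-rich bins gave 29, 25 and 30 lower there, with medians of -0.50, -0.36 and -0.53. The decrease is therefore not particular to this list. The bin of Mus81, a structure-specific endonuclease, and Kat5, an acetyltransferase that activates ATM (chr19:5000001-6000000), was at -0.94, -0.67 and -0.97 in HY clones, KO clones with SIRT7-WT and KO clones. It also holds the abundant nuclear RNAs Malat1 and Neat1. Its H2AX was 908.0 and 1304 CPM in HY clones, 1056 and 1212 CPM with SIRT7-WT and 953.3 and 1205 CPM in KO clones, against 698.7 and 563.7 CPM in WT cells. The bin of Men1, the menin tumour suppressor, was at -0.91, -0.70 and -0.95, and the bin of the flap endonuclease Fen1 and of Ddb1 at -0.74, -0.58 and -0.84. The deubiquitinase gene Bap1 lay in a bin at -0.61, -0.44 and -0.64.

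The bin of Trp53bp1, which encodes the 53BP1 reader of damaged chromatin, passed in KO clones (-0.43, adjusted p = 0.040), with -0.39 (adjusted p = 0.065) in HY clones and -0.28 (adjusted p = 0.177) with SIRT7-WT. The one list bin that was higher holds Xrcc4, a cofactor of DNA ligase IV in end joining, together with the matrix genes Vcan and Edil3, and was at 0.61, 0.57 and 0.61 in HY clones, KO clones with SIRT7-WT and KO clones. In KO and WT cells 1 bin of the list passed, that of the nucleotide excision repair gene Ercc8, at 0.12 (adjusted p = 0.045) and 0.15 (adjusted p = 0.0085), with list medians of 0.021 and 0.032. Scaled to autosomal reads 0 passed in KO cells and 1 in WT cells.

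Long genes of the kind found at common fragile sites, which break when replication is slowed, lay in 13 bins. Of these, 7 were higher and 0 lower in each clone type, beside 31.6, 30.6 and 32.6% of all tested bins higher in HY clones, KO clones with SIRT7-WT and KO clones. The medians were 0.36, 0.35 and 0.38, below those of the 111 gene-poor bins (0.58, 0.55 and 0.63), and most of these bins hold 1 coding gene. Scaled to autosomal reads 8, 7 and 7 were higher, and with DESeq2 size factors 1 was lower in KO clones. Lrp1b was at 0.69, 0.71 and 0.80 in these types, Macrod2 at 0.76, 0.75 and 0.73, Nrg3 at 0.68, 0.66 and 0.72, Gpc5 at 0.54, 0.53 and 0.59, Sorcs1 at 0.50, 0.52 and 0.56, and Fhit, the tumour suppressor at the classic human fragile site, at 0.36, 0.35 and 0.42. Arhgap15 was at 0.43, 0.41 and 0.38. The other 6 passed in no clone type: Gpc6 was at -0.21, -0.18 and -0.26 in these types, Pde4d at 0.064, 0.019 and -0.12, Kcnma1 at 0.040, 0.045 and 0.040, and Prkg1 at 0.35, 0.27 and 0.19. Sorcs3 was at 0.040, 0.054 and 0.084 and Pcsk5 at -0.0061, 0.0032 and -0.069. In KO cells the 13 bins had a median of -0.046, with 0.094 in the Arhgap15 bin (adjusted p = 0.143). In WT cells the median was -0.061 and the Arhgap15 bin passed at 0.16 (adjusted p = 0.014).

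The counts of the short lists that follow stand beside 31.6, 30.6 and 32.6% of all tested bins higher and 27.9, 25.1 and 29.9% lower in HY clones, KO clones with SIRT7-WT and KO clones. Of 6 bins with targets of p53, 3 were lower and 1 higher in HY clones, 2 lower with SIRT7-WT and 3 lower in KO clones. Scaled to autosomal reads each type had 1 lower and 1 higher. The bin of Ddb2, a damage sensor of nucleotide excision repair, was at -0.63, -0.46 and -0.62 in these types, and the bin of the stress kinase gene Plk2 passed in HY clones at 0.41 (adjusted p = 0.018). In WT cells the Plk2 bin (0.14, adjusted p = 0.0436) and the bin of the death receptor gene Fas and the smooth muscle actin gene Acta2 (0.10, adjusted p = 0.0326) passed. Of 8 bins with 10 imprinted genes 3 were lower and 0 higher in each type, close to the share of all tested bins, with medians of -0.21, -0.16 and -0.22. The 3 were those of Nnat and Blcap (-0.93, -0.78 and -0.94), H13 and Mcts2 (-0.71, -0.56 and -0.71) and Gnas (-0.57, -0.56 and -0.48). With autosomal scaling 1 imprinted bin was also higher in each type.

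Of 10 bins with fibroblast and matrix genes, 5 were lower in HY clones, 3 with SIRT7-WT and 6 in KO clones, and 1 was higher in each, that of Vcan. The bin of Bmp1, a protease that matures procollagens, was at -0.71, -0.56 and -0.73. With autosomal scaling 3 were lower and 1 higher in each type. Of the 4 bins with histone genes on chromosome 13, where most symbols were matched through RefSeq synonyms, 1 was lower in each clone type and 1 higher in KO clones, and 2 were higher in KO and in WT cells. With autosomal scaling 3, 2 and 2 were higher in HY clones, with SIRT7-WT and in KO clones. Of 18 bins with at least 3 olfactory receptor genes, 5, 5 and 6 were higher, which is near the share of all tested bins, and 0 lower; with autosomal scaling 9, 7 and 9 were higher. The Hoxd bin passed in no group, at -0.081 in HY clones, -0.11 with SIRT7-WT, -0.056 in KO clones, -0.020 in KO cells and -0.048 in WT cells. With autosomal scaling its sign turned in the clones, to 0.095 in HY clones, 0.033 with SIRT7-WT and 0.11 in KO clones.

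The clone types were then set against each other, in 3 pairs and for γH2AX, H2AX and γH2AX relative to H2AX. No member bin passed in any of the 9 comparisons (edgeR), beside 1.94% of all tested bins for γH2AX of HY clones against KO clones with SIRT7-WT, 0.0387% for γH2AX of HY clones against KO clones and of KO clones with SIRT7-WT against KO clones, 0.0387% and 0.0775% for H2AX of HY clones against KO clones and against KO clones with SIRT7-WT, and 0% in the others. At an unadjusted p under 0.05 there were 59, 54 and 4 member bins for γH2AX (HY against KO, HY against SIRT7-WT, SIRT7-WT against KO), 90, 81 and 0 for H2AX, and 1, 1 and 0 for γH2AX relative to H2AX. The DESeq2 Wald test called 12, 3 and 0 bins for γH2AX, 24, 18 and 0 for H2AX and 0, 0 and 0 for the relative value. The share of all tested bins was not computed for the unadjusted p or the Wald test. Whether these counts are particular to the members was therefore not tested. With the library pair as a block the relative value again gave 0% of all tested bins. With the replicate number as a block, HY clones against KO clones and against KO clones with SIRT7-WT gave 79 and 93 member bins for γH2AX (beside 16.9% and 17.3% of all tested bins) and 118 and 129 for H2AX (beside 18.7% and 18.6%). HY and KO clones are different lines, so there the number pairs no culture. With 2 libraries against 2, an exact permutation test of 1 bin cannot go below p = 0.333.

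The median 95% interval of a bin reached 0.28 to either side for γH2AX or H2AX and 0.40 for the relative value (0.23 with the block). In 473 to 478 of 479 bins the interval lay within 1 log2 unit of no difference. The bin nearest to the threshold holds Carmil1, Ripor2 and Cmah (chr13:24000001-25000000), with 409.5 and 444.6 CPM of H2AX in HY clones, 555.8 and 621.2 CPM in KO clones with SIRT7-WT and 537.8 and 624.7 CPM in KO clones. The HY clones were below all others there, by -0.46 ± 0.12 against KO clones with SIRT7-WT (SE, adjusted p = 0.071) and -0.44 ± 0.12 against KO clones (adjusted p = 0.089). Its γH2AX differed by -0.39 in HY clones against those with SIRT7-WT (adjusted p = 0.193). The bin of Zswim6 (chr13:107000001-108000000) had H2AX differences of -0.47 (adjusted p = 0.091) and -0.44 (adjusted p = 0.127). Chromosome 13 as a whole also took a smaller share of H2AX reads in HY clones, as given above.

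On chromosome 14, γH2AX of HY clones against KO clones differed by 0.36 in the bin of the polarity gene Dlg5 (chr14:24000001-25000000) and by 0.39 in the bin of the transcription factor gene Gata4 with Xkr6 and Pinx1 (chr14:63000001-64000000), both with an adjusted p of 0.132. H2AX was also higher in HY clones there. It had 562.9 and 616.5 against 447.8 and 480.0 CPM in the Dlg5 bin, and 571.2 and 679.0 against 453.4 and 512.7 CPM in the Gata4 bin. The HY clones took a larger share of chromosome 14 as a whole, as given above, and clone input was not used. For KO clones with SIRT7-WT against KO clones, the smallest p for γH2AX was in the bin of Bap1 (0.25, adjusted p = 0.99) and in that of Nup188, Ptges and Prrx2 (0.34, adjusted p = 0.99). For γH2AX relative to H2AX the last bin of chromosome 13 came first, with 0.88 ± 0.39 in HY clones against KO clones (adjusted p = 1), and it rests on the 1 HY library named above.

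Against the WT libraries of the rescue table, γH2AX relative to H2AX was higher in 66 and lower in 80 member bins of HY clones (beside 16.8% and 17.2% of all tested bins), and higher in 87 and lower in 102 of KO clones (beside 23.4% and 21.1%). In KO clones with SIRT7-WT no bin passed (0% of all tested bins by edgeR, lowest adjusted p 0.0545 among members), although 204 member bins had an unadjusted p under 0.05 and DESeq2 called 161. The share of all tested bins was not computed for the unadjusted p or for DESeq2. The comparisons with WT share the WT libraries. The difference between clone types in this measure is the direct comparison above, in which no bin passed. Bins of chromosome 2 led in both directions. The bin without coding genes at 42000001 was at 0.92 in HY clones, 0.90 with SIRT7-WT (adjusted p = 0.0545) and 0.99 in KO clones, and the Nup214 bin was at -0.97 in HY clones and -0.95 in KO clones.

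The counts against WT turned on single libraries. They were 0 in HY clones without the second γH2AX or H2AX library of the HY clones, the first γH2AX or the second H2AX library of WT, and 0 in KO clones without the matching 4 libraries. In KO clones with SIRT7-WT they were 164 without the second WT γH2AX library and 167 without the first WT H2AX library. With the block they were 349, 340 and 361 in HY clones, KO clones with SIRT7-WT and KO clones, beside 79.0%, 77.9% and 81.4% of all tested bins. In fits of the compared groups alone they were 0, 0 and 167. Scaled to autosomal reads the median of all tested bins was 0.17, 0.13 and 0.14, and the splits were 133 higher and 36 lower, 94 and 5, and 137 and 53.

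In WT cells the parental columns, which were used only for the WT libraries of the rescue table, allowed γH2AX to be compared with H2AX between the 2 parental classes of the same libraries. Of 479 member bins, 5 had a higher genome1 share in γH2AX and 14 a lower one, which is 3.97% beside 3.80% of all tested bins. One bin stood apart. In the bin of Chn1, a Rac GTPase activator, Ola1 and Wipf1 (chr2:73000001-74000000, inside the stretch), genome1 took 91.0 and 89.7% of assigned γH2AX reads, against 98.9 and 99.0% of H2AX reads and 99.0 and 98.9% of input reads. The difference lay in genome2, with 37.8 and 42.0 CPM of assigned reads in γH2AX, against 4.08 and 3.86 in H2AX and 3.83 and 4.24 in input, while genome1 had 379 and 367 against 379 and 368 in H2AX. The log2 difference was -3.35 ± 0.06 (SE, edgeR adjusted p = 1.79e-97). Over all assigned and unassigned reads the bin had 327.0 and 313.2 CPM of γH2AX against 306.4 and 293.2 CPM of H2AX. It was 1 of 2 tested bins past 1 log2 unit in this measure.

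In the bin of the kinase gene Camk1d (chr2:5000001-6000000), genome1 took 51.9 and 49.8% of γH2AX reads, against 57.4 and 57.6% of H2AX reads (-0.39 ± 0.02). Genome2 had 413 and 402 CPM of assigned reads in γH2AX, against 300 and 278 in H2AX. The bin of Nalcn and Itgbl1 at the end of chromosome 14 went the other way, with 70.7 and 69.5% in γH2AX against 64.9 and 64.9% in H2AX (0.34 ± 0.07, adjusted p = 4.2e-04). The bin of Grem1, a BMP antagonist, and Fmn1 (chr2:113000001-114000000) was at 0.18 and the bin of Ttbk2 and Ubr1 at 0.14. The bin of highest count on chromosome 2 was at -0.31 (adjusted p = 5.4e-05). Its genome1 share was 90.4 and 90.5% in γH2AX, 90.9 and 92.9% in H2AX, and 88.3 and 88.5% in input. The 2 H2AX libraries thus differed, and input lay below both antibodies. Few of its reads were assigned: 14534 and 39669 in γH2AX, in a bin of 57108 and 63339 CPM. None of the imprinted bins passed (lowest adjusted p = 0.154, Gnas). The method of parental assignment is not given in the sources used here, and its part in these bins was not tested.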

How the data were processed

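γH2AX and H2AX ChIP-seq and input libraries were sequenced from 12 groups of 2 samples. The deposited values are whole-number read counts per 1 Mb bin of mm10, not normalized, and for WT libraries of the rescue table also counts assigned to genome1 or genome2. Per the submitters' processing notes, which give no order or settings, the authors used deepTools 2.4.2, Trimmomatic 0.36, MACS2 2.2.7.1 and Bowtie2 2.2.9, together with FastQC 0.11.3, and SAMtools in version 0.1.19. Of 144 columns of values in both tables, 96 were not used here. Input of the clones has no labelled sample. The parental columns of the KO and WT table and of the clones were also left out. They could be tied to a group but not to a single labelled sample, which holds as well for the total counts used from these libraries.

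From the counts, bins with a mean of 100 or more were fitted with edgeR 4.0.16 (R 4.3.3; TMM scaling, quasi-likelihood test, Benjamini-Hochberg adjustment over all tested bins, threshold 0.05). One fit held the KO and WT libraries, one the clones, one the clones with 4 WT libraries, and one the parental counts, with the library as a term. Chromosome sums were fitted with the autosomal total as library size. CPM were scaled within each table with a prior count of 1 on the log2 scale, so 1 WT library has slightly different CPM in the 2 tables. Alternatives were DESeq2 1.42.0 size factors, its Wald test, the autosomal total, no filter, only the groups compared, a replicate block and each library left out. The code was tested on simulated data.

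The labels do not say which cultures the samples came from, so p-values measure the spread between these libraries, which may be technical, and between clones. Replicate names were taken as pairing γH2AX with H2AX in the rescue table, as every pair's correlation was over 0.1. Deviations from the group means correlated at 0.227 in KO and 0.414 in WT cells. They correlated at 0.224 in HY clones, 0.860 in KO clones with SIRT7-WT and 0.431 in KO clones. In WT of the rescue table the value was 0.986. Between γH2AX and H2AX of different groups it was 0.337 and 0.287 for KO and WT cells. In the rescue table such values ran from -0.40 to 0.72, so this correlation cannot show pairing. In KO and WT cells the block was the column name within each assay, which does not pair γH2AX with H2AX. Blocked counts stand beside the results.

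Named bins were, per comparison, the 3 largest increases and decreases past the threshold with libraries that do not overlap, or the 2 smallest p where none passed, plus the first and last bin of each chromosome and bins with listed genes. Genes were placed by midpoint with RefSeq (GRCm38.p6), histone genes through its synonyms. The members and lists were chosen with earlier results of these data known. Figures were drawn with matplotlib 3.10.9.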

Additional observations from a re-analysis of the deposited data

Results flagged for a closer look

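Differences between the clones and WT cells in γH2AX relative to H2AX met the rule for a difference of one contrast between groups, by an interaction term (edgeR quasi-likelihood test, Benjamini-Hochberg adjustment). In HY clones it was called in 146 member bins and in KO clones in 189. Both comparisons use the same WT libraries. In HY clones against WT the largest increases were 0.93 in the bin at 81000001 on chromosome 14, 0.92 in the Lrrc4c bin and 0.92 in the bin at 42000001 on chromosome 2, and the largest decreases were -0.97 in the Nup214 bin, -0.96 in the bin of Nup188, Ptges and Prrx2 (chr2:30000001-31000000) and -0.94 in the Col5a1 bin, each with an adjusted p of 0.0326. In KO clones against WT the values were 0.99 at 42000001 on chromosome 2, 0.98 at 81000001 on chromosome 14 and 0.96 in the Lrrc4c bin, and -0.99 in the Col5a1 bin, -0.97 in the Nup188 bin and -0.95 in the Nup214 bin, each with an adjusted p of 0.0185. In either comparison, leaving out any one of the second γH2AX or H2AX library of the clones, the first WT γH2AX library or the second WT H2AX library ended every call.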

How the results depend on the processing

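Counts below are member bins called, unless chromosomes are named. The shares of all tested bins for the reported fits and the block stand with the results above. For the other settings such shares of bins were not computed. γH2AX relative to H2AX in KO cells gave 28 bins, 69 with the DESeq2 Wald test, 0 in a fit of the compared groups alone, 199 with the replicate block and 2 to 93 with each library left out. In WT cells it gave 61, 134, 20, 308 and 1 to 176. In KO clones with SIRT7-WT it gave 238, 366 with the block and 150 to 185 with a library left out. Against WT, HY clones gave 146, 0 with the compared groups alone, 349 with the block and 0 to 194 with a library left out. KO clones gave 189, 361 with the block and 0 to 214. KO clones with SIRT7-WT gave 0, 99 with the autosomal total, 161 with the Wald test, 340 with the block and 0 to 167.

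Between clone types, with 0 bins in the reported fit, the Wald test called 12 (HY against KO) and 3 (HY against SIRT7-WT) for γH2AX and 24 and 18 for H2AX, and the block 79 and 93 for γH2AX and 118 and 129 for H2AX. HY and KO clones are different lines, so there the number pairs no culture. Fits of the compared groups alone called 1 and 1 for H2AX, and the autosomal total 1 for H2AX of HY clones against SIRT7-WT. A library left out gave 0 to 1 for γH2AX and for the relative value of HY clones against either type. The parental comparison gave 19, and 6 to 15 with a library left out. The library is already a term there, so no separate block was fitted.

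Over all comparisons 2 chromosome values were called, 4 with the TMM factors of the bins, 23 with the block, 4 without the 2 bins of highest count, 29 with both (the last 2 settings chosen after seeing the data) and 0 to 6 with a library left out. For named bins, a library left out kept the call in 264 cases, ended it in 80, made it in 6 and turned the sign in 2. These were the bin at 119000001 on chromosome 13 for the relative value of HY clones against SIRT7-WT (-0.045 to 0.75) and the Macrod2 bin for H2AX of KO clones with SIRT7-WT against KO clones (-0.24 to 0.038), neither past the threshold in the reported fit. The causes were not tested.

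With 2 libraries a group, the median 95% interval of a difference between clone types reached 0.28 to either side in γH2AX or H2AX. No spike-in sets an absolute level, and clone input was not analysed here.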
